A study of Mus musculus with 7 samples.

Results

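The neuromuscular junction and denervation genes described here were 10 genes chosen by name: *Chrna1*, *Chrnb1*, *Chrnd*, *Chrne*, *Musk*, *Rapsn*, *Dok7*, *Lrp4*, *Ncam1* and *Ache*. All 10 were present among the 12239 genes of the expression table. Whole tibialis anterior (TA) muscle, a fast muscle of the lower hindlimb, came from males of 5 to 6 months and was profiled by poly(A)-selected RNA sequencing. Wild-type (WT) mice gave 4 libraries and C2-/- mice gave 3, both on the FVBN background. In the C2-/- allele, exons 2 to 22 of *Mybpc2*, which encodes the fast isoform of myosin binding protein-C, are replaced by a Neo cassette that carries a LoxP site on either side. The allele is not restricted to muscle by a promoter or Cre, so the motor nerve carries it too. The series asks which transcripts differ between the genotypes, and here that question is put to the nerve-to-muscle synapse. The study counts its n in mice, so each library was taken as a different animal.

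At the junction, acetylcholine released by the motor nerve opens a receptor on the muscle membrane that is built from α1, β1, δ and ε subunits in adult muscle. Agrin from the nerve binds LRP4, LRP4 activates the kinase MuSK, the adaptor Dok-7 binds MuSK, and rapsyn then anchors the receptors in dense clusters. Acetylcholinesterase ends each signal. The nuclei under the synapse transcribe these genes, while nuclei elsewhere along an innervated fibre are kept largely silent for them. After denervation that restraint is lifted, and *Chrna1*, *Musk* and *Ncam1* are known to be transcribed along the whole fibre. In whole muscle RNA, fewer junction nuclei and less RNA per nucleus cannot be told apart.

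Transcription of receptor subunits is known to be driven through E-boxes (CANNTG, bound by myogenic bHLH factors) and, at synaptic nuclei, through N-boxes (CCGGAA, bound by Ets factors such as GABP). RefSeq start sites on build GRCm38.p6 were matched for 6 of the 10 genes: *Chrna1*, *Chrnb1*, *Chrne*, *Musk*, *Dok7* and *Ache*. The promoters of the 3 receptor subunits that passed the test are shown because *Chrnb1* was higher and *Chrna1* and *Chrne* were lower in C2-/- muscle. Each line gives the 250 bases before the start site, 5′ to 3′ on the minus strand, with E-boxes and N-boxes in capitals. They lie at chr2:73580339-73580588 (*Chrna1*), chr11:69795938-69796187 (*Chrnb1*) and chr11:70619195-70619444 (*Chrne*).
Chrna1: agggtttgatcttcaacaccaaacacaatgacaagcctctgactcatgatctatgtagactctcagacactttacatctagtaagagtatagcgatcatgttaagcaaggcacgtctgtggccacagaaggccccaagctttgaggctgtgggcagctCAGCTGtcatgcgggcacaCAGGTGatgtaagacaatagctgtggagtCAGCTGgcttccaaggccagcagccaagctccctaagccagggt
Chrnb1: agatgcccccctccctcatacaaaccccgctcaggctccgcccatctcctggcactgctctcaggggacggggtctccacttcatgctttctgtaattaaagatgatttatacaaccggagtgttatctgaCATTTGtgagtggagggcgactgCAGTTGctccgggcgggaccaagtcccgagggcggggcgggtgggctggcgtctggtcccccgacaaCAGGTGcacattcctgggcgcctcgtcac
Chrne: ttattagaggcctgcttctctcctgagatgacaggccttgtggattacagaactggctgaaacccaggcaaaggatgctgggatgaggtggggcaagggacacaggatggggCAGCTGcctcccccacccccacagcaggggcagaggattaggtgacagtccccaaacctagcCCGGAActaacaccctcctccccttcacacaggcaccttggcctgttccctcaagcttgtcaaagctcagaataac

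In *Chrna1*, E-boxes begin 92, 73 and 44 bases before the start site, and the outer pair reads CAGCTG. In *Chrnb1*, they begin 119, 96 and 29 bases before the start site, and none reads CAGCTG. *Chrne* has 1 E-box, a CAGCTG that begins at 138 bases, and 1 N-box that begins at 76 bases. Windows of 300 bases, reaching from 250 before to 50 after each start, were searched on both strands. The 6 genes had 7 promoters, 2 of them for *Dok7*. An E-box was found in 6 of the 7, all but the downstream *Dok7* promoter, against 72.3% of all 32851 RefSeq promoters. The CAGCTG form, which is a subset of the E-boxes, was found in 3 of the 7 (*Chrna1*, *Chrne* and *Musk*), against 16.3% of promoters. The N-box was found for *Chrne* alone, against 14.9%. These matches describe letters in a window and are not measured binding.

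Libraries differed in depth with genotype. The table held 4683853 to 15464499 reads for the WT libraries and 2613277 to 4917936 for the C2-/- libraries, and WT replicate 4 was the shallowest of its group. C2-/- replicate 2 had 0 reads for 1030 genes, the most of any library. *Mybpc2* checked the labels: it had 25665 to 110159 reads in WT libraries and 3 to 8 in C2-/- libraries (log2 change −11.82, adjusted p by limma = 4.85e-07). Fast muscle markers, such as *Acta1*, *Ckm* and *Pvalb*, summed to 199342 to 233133 counts per 1000000 reads (CPM) in WT and 103708 to 126015 in C2-/- libraries. These markers of the labelled tissue were abundant in both groups, and 6 of the 10 were lower in C2-/- muscle (median log2 change −0.97). With the correction for transcript GC content described below, 2 were lower and 1 higher (median 0.05). All values below are log2 CPM after TMM scaling unless stated. A gene passed the threshold when its adjusted p was under 0.05 and its fold change exceeded 1.5. By this rule 45.2% of all genes differed between the genotypes, 20.2% higher and 25.0% lower in C2-/- muscle.

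Of the 10 junction genes, 6 passed the threshold. *Chrnb1* was higher, and *Chrna1*, *Chrne*, *Rapsn*, *Dok7* and *Ache* were lower, in C2-/- muscle. With a correction for transcript GC content *Ache* turned and *Chrne* lost its call. Under that correction *Chrne* kept its call on thinned reads, but lost it without WT replicate 4 or without C2-/- replicate 2. Without the correction, the share past the threshold was 6 of 10 against 45.2% of all genes, and the share that was lower was 5 of 10 against 25.0%. The same 6 genes were those whose C2-/- values did not overlap the WT values, which was true of 49.3% of all genes (22.6% wholly above and 26.7% wholly below). The median log2 change of the 10 was −1.06, against −0.14 over all genes. *Chrnd*, *Musk*, *Lrp4* and *Ncam1* did not pass.

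**Figure D1:**
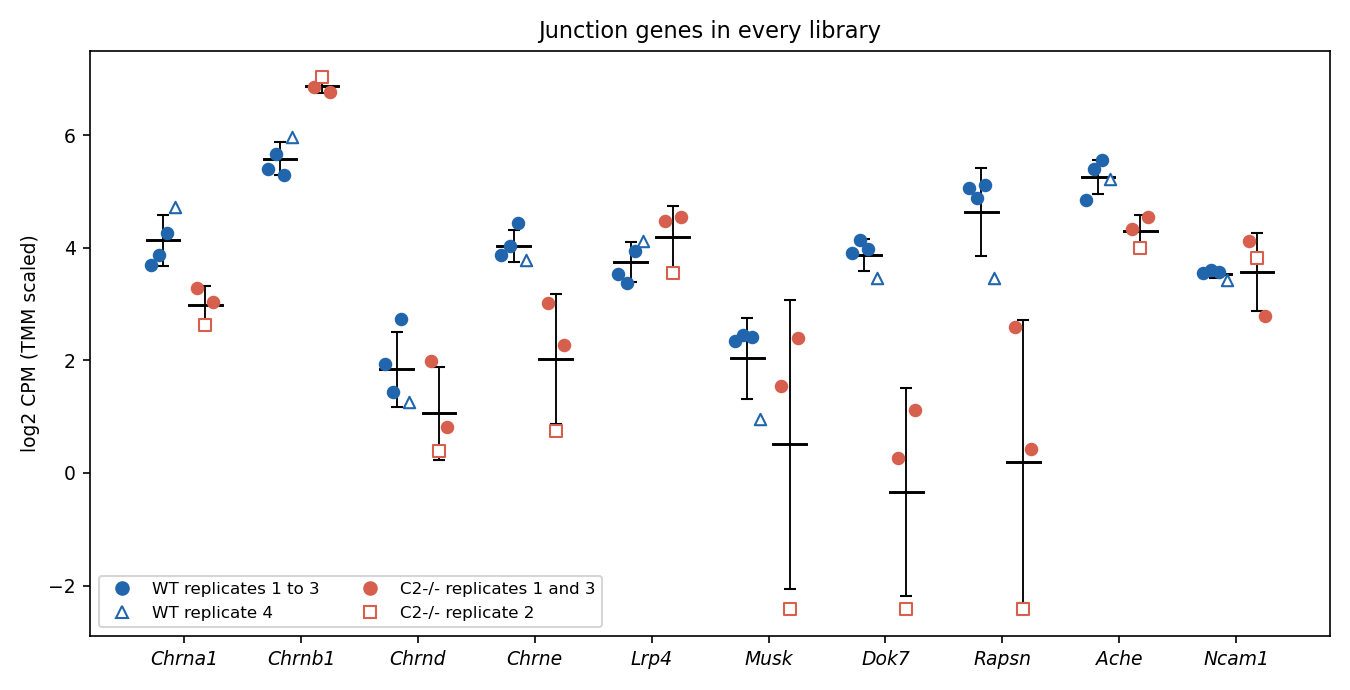
Expression of the 10 junction genes in every library, in log2 CPM after TMM scaling (vertical axis), by gene (horizontal axis). Points are libraries, with WT in blue and C2-/- in red and WT replicate 4 and C2-/- replicate 2 as open symbols, and horizontal lines with bars are group means ± SD. The C2-/- points lie wholly above the WT points for *Chrnb1* and wholly below them for *Chrna1*, *Chrne*, *Dok7*, *Rapsn* and *Ache*, of which *Ache* turned with the GC correction.

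Of the 4 receptor subunits, 1 was higher, 2 were lower and 1 did not pass. *Chrnb1*, the β1 subunit gene on chromosome 11 (69784036 to 69795943, GRCm38), measured 5.40, 5.67, 5.30 and 5.96 in WT replicates 1 to 4 and 6.85, 7.03 and 6.76 in C2-/- replicates 1 to 3. Each C2-/- library lay above every WT library. The means were 5.58 ± 0.30 (SD, n = 4) and 6.88 ± 0.14 (SD, n = 3). The log2 change was 1.29 (SE 0.20, 95% confidence interval 0.85 to 1.73, adjusted p by limma = 0.00103). In reads thinned to 2613277 per library, *Chrnb1* had 106 to 156 reads in WT and 280 to 348 in C2-/- libraries.

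*Chrna1*, the α1 subunit gene on chromosome 2 (73563215 to 73580338), encodes the subunit that is present more than once in each receptor and carries most of the acetylcholine binding site. Its WT libraries measured 3.70, 3.87, 4.27 and 4.72, and its C2-/- libraries 3.29, 2.63 and 3.03. The lowest WT value stood 0.41 above the highest C2-/- value. WT replicate 4, the shallow WT library, held the highest value. The mean fell from 4.14 ± 0.45 (SD, n = 4) to 2.98 ± 0.34 (SD, n = 3), a log2 change of −1.15 (SE 0.33, interval −1.89 to −0.42, adjusted p by limma = 0.0176). Without WT replicate 3 the change was −1.11 with an adjusted p by limma of 0.0560, and the call was lost.

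*Chrne* encodes the ε subunit, which replaces the fetal γ subunit as the junction matures. It lies 819 kb from *Chrnb1* on chromosome 11 (70614883 to 70619216), and it changed in the other direction. Its values were 3.87, 4.03, 4.43 and 3.78 in WT and 3.02, 0.75 and 2.28 in C2-/- libraries, with 60 to 331 reads in WT and 23, 4 and 23 in C2-/- libraries. Every C2-/- library was below every WT library, and C2-/- replicate 2 was the lowest. The log2 change was −2.01 (SE 0.50, interval −3.12 to −0.91, adjusted p by limma = 0.00895). Without C2-/- replicate 2 it was −1.38 (adjusted p by limma = 0.0106). With the correction for GC content, given below, the call was lost. With that correction it was kept on thinned reads, but lost without WT replicate 4. It was also lost with the correction and without C2-/- replicate 2, at −0.75 (adjusted p by limma = 0.0803). *Chrng*, the fetal γ subunit, was not analysed here.

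*Chrnd*, the δ subunit gene on chromosome 1 (87190607 to 87200070), had the lowest WT level of the 4 subunits, at 1.30 ± 0.668 CPM per kb (SD, n = 4). It measured 1.93, 1.44, 2.74 and 1.26 in WT and 1.98, 0.39 and 0.81 in C2-/- libraries, from 10 to 102 and from 3 to 11 reads. The groups overlapped, since C2-/- replicate 1 exceeded 3 of the 4 WT libraries. The log2 change of −0.78 (interval −2.06 to 0.51, adjusted p by limma = 0.286) left room for changes in either direction.

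The α1 and ε subunits were also set against each other inside each library, a difference that no scaling factor common to both genes can move. *Chrna1* minus *Chrne* was −0.17, −0.16, −0.17 and 0.93 in WT replicates 1 to 4 and 0.28, 1.87 and 0.75 in C2-/- replicates 1 to 3. WT replicates 1 to 3 were nearly equal, and WT replicate 4 lay above 2 of the 3 C2-/- libraries. The mean difference between genotypes was 0.86, and with all 35 ways of assigning the libraries to groups of 4 and 3 enumerated, the exact permutation p (two-sided) was 0.2, where the smallest possible was 0.0286. Without C2-/- replicate 2, where *Chrne* had 4 reads, the difference was 0.41 (exact permutation p = 0.4).

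In the agrin pathway, *Dok7* and *Rapsn* were lower in C2-/- muscle, and *Lrp4* and *Musk* did not pass. *Lrp4*, the agrin receptor gene on chromosome 2 (91457511 to 91513779), measured 3.54, 3.38, 3.95 and 4.12 in WT and 4.47, 3.56 and 4.55 in C2-/- libraries. C2-/- replicates 1 and 3 were above all WT libraries, and C2-/- replicate 2 was inside the WT range. The log2 change was 0.45 (SE 0.33, interval −0.28 to 1.18, adjusted p by limma = 0.280). With WT replicate 4 and C2-/- replicate 2 both left out, it was 0.89 (adjusted p by limma = 0.0128) and passed the threshold. With 1 library left out at a time, it ranged from 0.27 to 0.77 (adjusted p by limma 0.0553 to 0.563) and never passed.

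*Musk*, the kinase gene on chromosome 4 (58285960 to 58374303), measured 2.34, 2.45, 2.41 and 0.95 in WT and 1.55, −2.42 and 2.40 in C2-/- libraries. The value of −2.42 is that of 0 reads in C2-/- replicate 2, where a count of 0 allows up to 1.12 CPM (3 reads, counting error only). C2-/- replicate 3, at 25 reads, was within the range of WT replicates 1 to 3, and WT replicate 4 was the lowest WT library. The log2 change of −1.53 had an interval of −3.79 to 0.74 (adjusted p by limma = 0.237), and without C2-/- replicate 2 it was −0.06 (adjusted p by limma = 0.933).

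*Dok7* encodes the adaptor that sustains MuSK activity, on chromosome 5 (35056766 to 35087839). It measured 3.90, 4.13, 3.98 and 3.46 in WT and 0.27, −2.42 and 1.12 in C2-/- libraries. These values stood on 229, 262, 242 and 48 reads against 3, 0 and 10. The highest C2-/- library lay 2.34 log2 units under the lowest WT library. The log2 change was −4.21 (SE 0.74, interval −5.85 to −2.57, adjusted p by limma = 0.00186), and it depends on the 0.5 reads added before the log, since 2 of the 3 C2-/- libraries had 3 reads or fewer. Without C2-/- replicate 2 it was −3.18 (adjusted p by limma = 0.00156). On the linear scale *Dok7* ranged from 3.93 to 6.30 CPM per kb of transcript in the 4 WT libraries (mean 5.32) and from 0 to 0.745 in the 3 C2-/- libraries (mean 0.372).

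*Rapsn*, the gene of the receptor-anchoring protein rapsyn, lies 412 kb from *Lrp4* on chromosome 2 (91035620 to 91045729). It measured 5.07, 4.89, 5.12 and 3.46 in WT and 2.59, −2.42 and 0.43 in C2-/- libraries, from 514, 442, 535 and 48 reads against 17, 0 and 6. The groups did not overlap, although WT replicate 4 was 1.42 below the next WT library. The log2 change was −4.44 (SE 0.96, interval −6.58 to −2.29, adjusted p by limma = 0.00495), and −3.13 (adjusted p by limma = 0.00780) without C2-/- replicate 2. With 2 reads added before the log in place of 0.5, the log2 changes were −3.64 for *Rapsn* (adjusted p by limma = 0.00180), −3.33 for *Dok7* (adjusted p by limma = 0.000430) and −0.83 for *Musk* (adjusted p by limma = 0.314). Set against WT replicate 4 alone, the C2-/- mean of *Rapsn* differed by −3.26 and that of *Dok7* by −3.81, with no test, since that arm is 1 library. In thinned reads *Rapsn* had 26 to 99 reads in WT and 15, 0 and 3 in C2-/- libraries.

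*Ache*, the acetylcholinesterase gene on chromosome 5 (137287519 to 137294466), measured 4.84, 5.39, 5.55 and 5.22 in WT and 4.33, 3.99 and 4.55 in C2-/- libraries. All C2-/- values were below all WT values, and the nearest pair was 0.29 apart. The means were 5.25 ± 0.31 (SD, n = 4) and 4.29 ± 0.28 (SD, n = 3), a log2 change of −0.96 (SE 0.24, interval −1.50 to −0.42, adjusted p by limma = 0.0101). *Ache* shares 98 exonic bases with *Gm42456* on the opposite strand. The direction of its change turned with a correction for transcript GC content, given below.

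*Ncam1* encodes a cell adhesion molecule that is concentrated at the junction in innervated muscle and spreads along denervated fibres (chromosome 9, 49502136 to 49798925). It measured 3.55, 3.60, 3.58 and 3.43 in WT, the tightest group of any of the 10 genes, and 4.12, 3.81 and 2.79 in C2-/- libraries. The C2-/- values lay on both sides of the WT range. The log2 change was 0.03 (SE 0.35, interval −0.74 to 0.81, adjusted p by limma = 0.942). *Ncam1* shares 417 exonic bases with the antisense gene *Gm11149*, and whether counting used strand is not given in the sources used here.

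Spread was wider in C2-/- muscle for 7 of the 10 genes, against 66.8% of all genes. C2-/- replicate 2 was the lowest of the 7 libraries for 7 of the 10 genes, against 27.2% of all genes. *Musk*, *Rapsn* and *Dok7* were at 0 there, against 8.42% of all genes, so their values above are also given without that library. Without it the log2 changes of the other genes not given so far were 1.22 for *Chrnb1*, −0.98 for *Chrna1*, −0.44 for *Chrnd*, 0.77 for *Lrp4*, −0.81 for *Ache* and −0.08 for *Ncam1*, and no call changed. Per kilobase of transcript, *Chrnb1* led in both genotypes, at 22.6 ± 4.78 CPM per kb (SD, n = 4) in WT and 54.7 ± 5.22 (SD, n = 3) in C2-/- muscle. In WT the order of mean CPM per kb was then *Ache* (17.7), *Rapsn* (16.9), *Chrne* (10.2), *Dok7* (5.32), *Chrna1* (4.16), *Ncam1* (1.77), *Lrp4* (1.72), *Chrnd* (1.30) and *Musk* (1.28). Neighbours in this order overlapped in range, except that *Chrne* stood clear above *Dok7* and *Chrna1* clear above *Ncam1*. In C2-/- muscle *Rapsn* averaged 1.47 CPM per kb (range 0 to 3.64), which overlapped 7 of the other genes, *Dok7* among them.

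**Figure D2:**
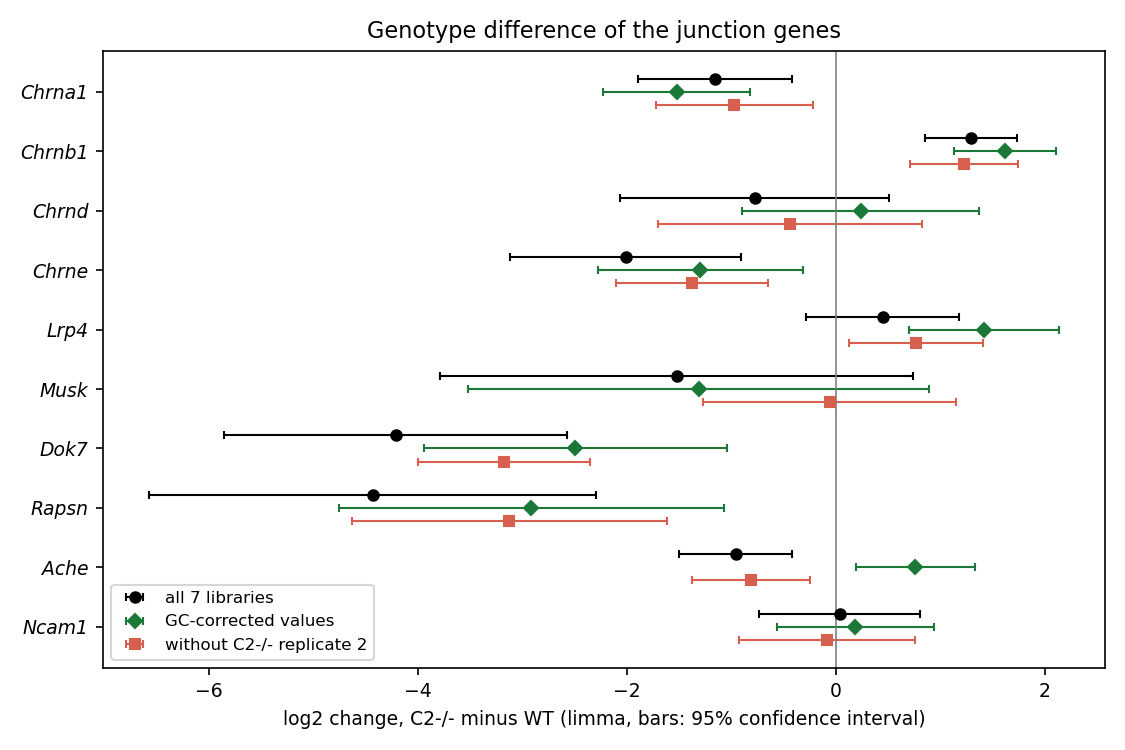
Genotype difference of each junction gene, C2-/- minus WT on the log2 scale (horizontal axis), by gene (vertical axis). Circles use all 7 libraries, diamonds use values corrected for transcript GC content, squares leave out C2-/- replicate 2, and bars are 95% confidence intervals from limma. *Chrnb1* stays above 0 and *Chrna1*, *Chrne*, *Dok7* and *Rapsn* stay below 0 in all 3 settings, while *Ache* lies below 0 in 2 settings and above 0 with the GC correction.

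The difference between the genotypes moved with the GC content of the transcript over the whole table. With the genes cut into deciles of GC content, the median log2 change was 1.12 in decile 1, the lowest, and −1.73 in decile 10, the highest. *Rapsn* (58.5% GC), *Dok7* (60.4%) and *Ache* (60.4%) were in decile 10, where 64.7% of genes were lower in C2-/- muscle. *Chrna1* (46.3%) was in decile 3, where the median change was 0.55, and *Chrnb1* (50.9%) and *Musk* (50.2%) were in decile 6, where it was −0.35. *Chrna1* was thus lower in a decile with a median above 0, and *Chrnb1* higher in a decile with a median below 0.

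**Figure D3:**
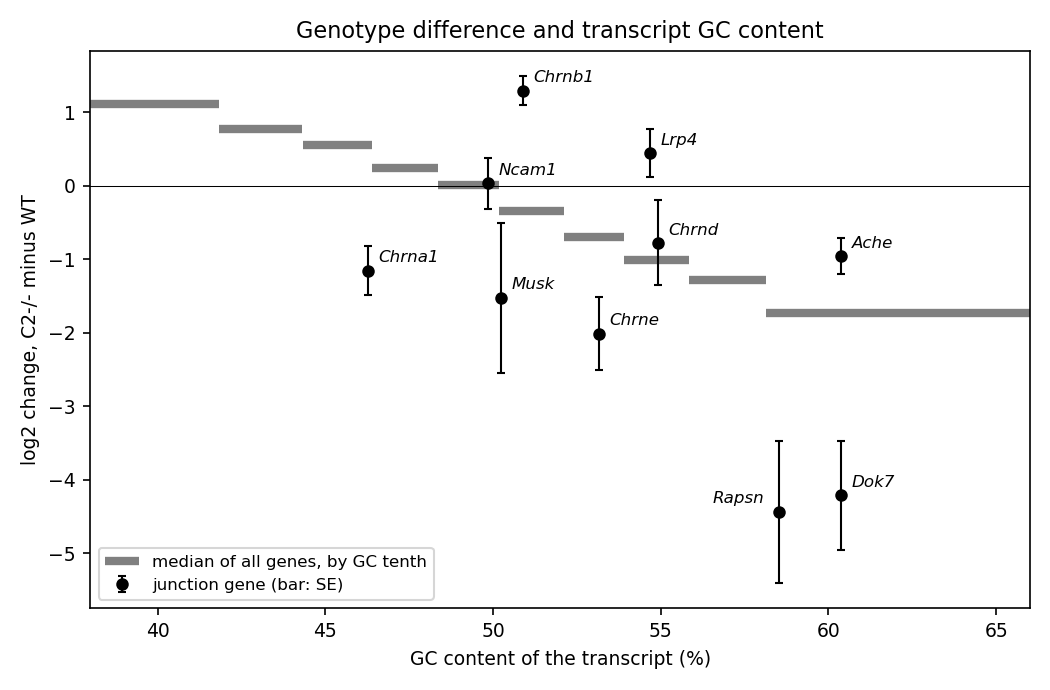
Genotype difference (C2-/- minus WT, log2, vertical axis) against the GC content of the transcript in percent (horizontal axis). Grey bars are medians over all genes in each decile of GC content, from 1.12 in the lowest to −1.73 in the highest, and points are the junction genes with their SE. *Chrna1*, *Musk*, *Chrne*, *Rapsn* and *Dok7* lie below the bar of their decile, and *Chrnb1*, *Lrp4*, *Chrnd* and *Ache* lie above it.

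After a smooth function of GC content was removed from each library, 20.6% of 12180 genes passed the threshold, 12.3% higher and 8.33% lower. Of the 10 junction genes 5 passed. *Chrnb1* was higher by 1.62 (adjusted p by limma = 0.00210), and *Chrna1* was lower, at −1.52 (adjusted p by limma = 0.00938). *Rapsn* and *Dok7* remained lower, at −2.92 (adjusted p by limma = 0.0324) and −2.49 (adjusted p by limma = 0.0238). *Lrp4* now passed, at 1.42 (adjusted p by limma = 0.0138). *Chrne* was no longer called, at −1.30 (adjusted p by limma = 0.0605), and *Ache* turned to 0.76 (adjusted p by limma = 0.0579). On thinned reads, or without WT replicate 4, the correction put *Ache* past the threshold as higher, at 0.92 (adjusted p by limma = 0.0350) and 0.89 (adjusted p by limma = 0.0259). On thinned reads *Chrne* kept its call, at −1.57 (adjusted p by limma = 0.0328). With the correction *Chrne* lost its call without WT replicate 4, and also without C2-/- replicate 2, at −0.75 (adjusted p by limma = 0.0803). The corrected *Ache* values were 4.02, 4.54, 4.61 and 4.89 in WT and 4.93, 5.37 and 5.53 in C2-/- libraries, so that the C2-/- libraries, lowest before, were now the highest. For *Lrp4* they were 3.07, 2.90, 3.41 and 3.95 against 4.76, 4.34 and 5.15. With the correction and without C2-/- replicate 2, *Rapsn* also lost its call, at −1.79 (adjusted p by limma = 0.0526). *Chrna1* minus *Chrne* became −0.23. The median over the 10 genes was −0.56, against 0.02 over all genes.

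The other genes of the junction formed a list of 42, of which 39 were analysed, and *Chrng*, *Nrg1* and *Erbb4* were not. Of the 39, 16 were lower in C2-/- muscle, against 25.0% of all genes, 8 were higher, against 20.2%, and 15 did not pass, with a median log2 change of −0.69 against −0.14 over all genes. *Erbb3* and *Erbb2*, the neuregulin receptor genes, were lower, with log2 changes of −2.74 and −2.54 (adjusted p by limma = 0.0107 and 0.0194), on 41 to 77 reads in WT replicates 1 to 3 and 0 to 5 reads in C2-/- libraries. In WT replicate 4, nearer in depth to the C2-/- libraries, they had 6 and 13 reads. *Etv5* and *Etv4*, Ets factors that act downstream of neuregulin signals, were lower as well, at −1.48 and −2.34. *Etv4* had 8 to 36 reads in WT and 0 to 2 in C2-/- libraries. The GABP genes *Gabpa* and *Gabpb1* were higher (adjusted p by limma = 0.0147 and 0.0444), but were not called with the GC correction, at −0.25 and 0.65. *Colq*, the collagen tail that anchors acetylcholinesterase in the synaptic cleft, went from 22 to 170 reads in WT to 3 to 8 in C2-/- libraries (log2 change −2.15, adjusted p by limma = 0.0116).

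*Plec*, a cytoskeletal linker, and *Lama5*, a laminin chain of the synaptic basal lamina, were lower at −2.36 and −2.24. The call for *Col13a1*, a collagen of the synapse, at −2.85 (adjusted p by limma = 0.0486), had 62 reads in WT replicate 4 and 13 to 21 in the other WT libraries, which were more than 3 times as deep. *Agrn*, the agrin gene, did not pass, at −0.69 (adjusted p by limma = 0.147). With the GC correction, 5 of the 39 were lower, against 8.33% of all genes, and 3 higher, against 12.3%. *Erbb3* and *Etv5* were still lower, at −2.36 and −1.01, while the other 6 genes named above as lower were no longer called. These were *Colq* at −0.97 (adjusted p by limma = 0.219), *Erbb2* at −1.18 (adjusted p by limma = 0.222), *Etv4* at −0.80 (adjusted p by limma = 0.508), *Plec* at −0.56 (adjusted p by limma = 0.0745), *Lama5* at −0.57 (adjusted p by limma = 0.102) and *Col13a1* at −1.26 (adjusted p by limma = 0.457).

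**Figure D4:**
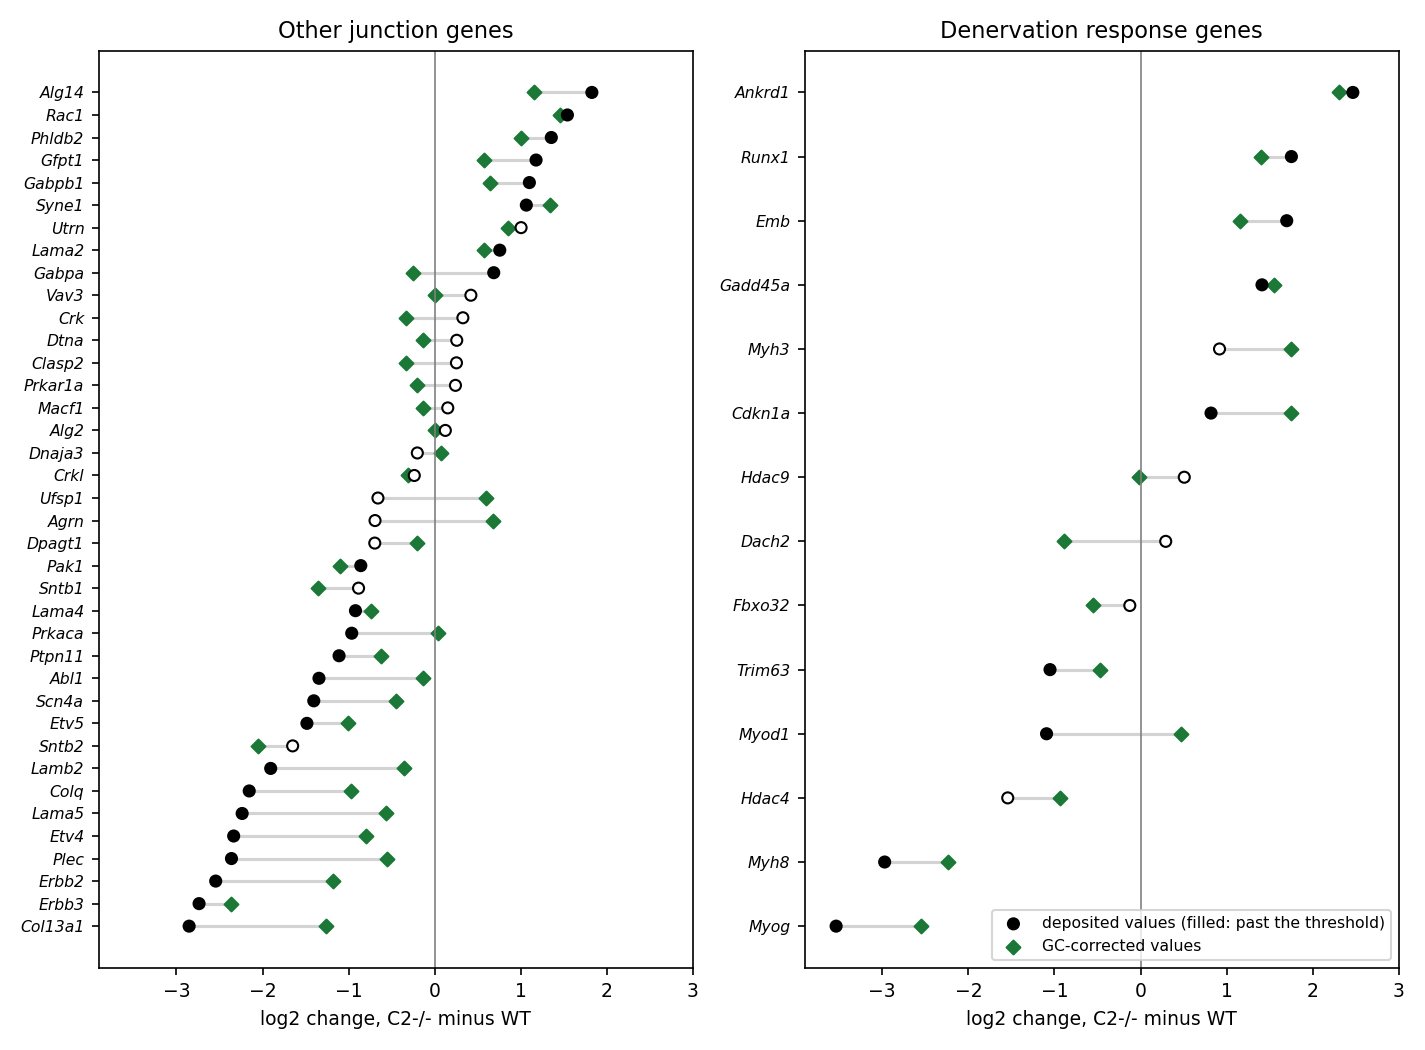
Genotype difference (C2-/- minus WT, log2, horizontal axis) of other junction genes (left) and denervation response genes (right), by gene (vertical axis). Circles are the deposited values, filled where past the threshold, and diamonds are the values corrected for transcript GC content. Both signs occur in each list, and for *Plec* and *Lama5* the diamond lies closer to 0 than the circle.

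Of 18 listed genes known to respond to denervation, 14 were analysed. Here 5 were higher, against 20.2% of all genes, 4 were lower, against 25.0%, and 5 did not pass. Their median log2 change was 0.40, against −0.14 over all genes. These counts and the median take no account of the direction in which each gene is known to respond. *Runx1*, a transcription factor induced in denervated muscle, measured 0.84 to 1.72 in WT and 2.32 to 3.44 in C2-/- libraries (log2 change 1.75, adjusted p by limma = 0.0126). *Gadd45a*, a growth arrest gene, measured 3.31 to 4.00 and 4.55 to 5.55 (log2 change 1.41, adjusted p by limma = 0.00500). *Ankrd1*, a stress-responsive ankyrin repeat gene, and *Emb*, encoding embigin, were higher by 2.47 and 1.70. After the GC correction *Gadd45a* and *Ankrd1* were still higher, at 1.55 and 2.31, while *Runx1*, at 1.39 (adjusted p by limma = 0.0553), and *Emb*, at 1.16 (adjusted p by limma = 0.167), were no longer called.

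*Myog*, the myogenic factor that drives receptor subunit genes after denervation, was lower. It had 72, 37, 58 and 21 reads in WT and 5, 0 and 0 reads in C2-/- libraries, and its log2 change, which depends on the 0.5 reads added, was −3.54 (adjusted p by limma = 0.0123), with −2.55 (adjusted p by limma = 0.0657) after the GC correction. *Myh8*, the perinatal myosin heavy chain (−2.97), *Myod1*, another myogenic factor (−1.09), and *Trim63*, an atrophy ubiquitin ligase (−1.05), were also lower. After the GC correction *Myh8* was still lower at −2.23 (adjusted p by limma = 0.0115), *Trim63* was at −0.47 (adjusted p by limma = 0.177), and *Myod1* turned to 0.47 (adjusted p by limma = 0.383). *Hdac4*, a repressor that links denervation to *Myog*, did not pass, at −1.54 (adjusted p by limma = 0.0522). With the GC correction, 3 of the 14 were higher, against 12.3% of all genes, and 1 was lower, against 8.33%.

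Other cell types of the tissue were checked by their markers, whose counts stand against the 20.2% of all genes that were higher and 25.0% that were lower (12.3% and 8.33% with the GC correction). Schwann cell and nerve markers, 9 of 14 analysed, summed to 71.8 to 156 CPM in WT and 69.1 to 96.2 CPM in C2-/- libraries. *Cnp*, *Ngfr* and *Mbp* were lower, at −2.88, −2.75 and −1.22, and none was higher. Without WT replicate 3, 1 of the 9 was lower, and without WT replicate 4, 2 were lower and 2 higher. With the GC correction *Cnp* alone of the 9 was called, and *Ngfr* was at −1.22 (adjusted p by limma = 0.399) and *Mbp* at −0.87 (adjusted p by limma = 0.0837). *Prx*, *Ngfr* and *Egr2* were each at 0 in at least 1 C2-/- library. Satellite cell markers, 7 of 8 analysed, summed to 85.3 to 198 CPM in WT and 53.8 to 55.4 in C2-/- libraries, with 2 higher (*Myf5* and *Chodl*) and 2 lower (*Itga7* and *Sdc4*), and *Pax7* at 0 in C2-/- replicate 3. With the GC correction none of the 7 was higher and the same 2 were lower, and without WT replicate 1 only 1 was higher and 1 lower. *Itga7* alone made up 55.3 to 140 CPM of the WT sums and 13.2 to 21.0 CPM of the C2-/- sums. Fibroblast markers summed to 472 to 798 and 1540 to 1877 CPM, with 5 of 6 higher, and 3 of 6 with the GC correction or without C2-/- replicate 2. Myotendinous junction markers summed to 237 to 290 and 338 to 461 CPM, with 2 of 4 higher and 1 lower, and 1 higher and none lower with the GC correction. Without WT replicate 2, 1 of these 4 passed. The part of these cell types in the junction gene results was not tested.

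Profiles most like those of 5 junction genes were sought among 10639 genes, as the smallest root-mean-square difference of centred log2 values over the 7 libraries. *Myo1d* (0.142) and *Nosip* (0.186) were nearest to *Chrna1*, and *Ppan* (0.167) and *Slc25a38* (0.189) to *Chrne*. *Musk* was nearest to *9130023H24Rik* (0.237) and *Gm15408* (0.258), *Ncam1* to *Ulk3* (0.116) and *Crispld2* (0.121), and *Ache* to *Carm1* (0.142) and *Igfbp5* (0.148). Only genes outside the 10 were compared. With the GC correction the genotype changes of several of these parted from their junction gene, as *Nosip* at 0.40 against *Chrna1* at −1.52, *Ppan* at −0.17 against *Chrne* at −1.30 and *Igfbp5* at −0.75 against *Ache* at 0.76.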

How the data were processed

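RNA from whole TA muscle was sequenced in 4 WT and 3 C2-/- libraries. The authors aligned reads with HISAT to GRCm38.p6, counted them per gene with featureCounts (v1.5.2), scaled them by edgeR's TMM method and deposited log2 values in CPM. Reads were recovered from these log2 values, because each value equals log2 of the reads plus 0.5, per effective library size, to within 0.001 reads. The table of the authors' own fold changes and p-values was not used. Genotypes were compared in limma 3.58.1 (R 4.3.3) with a mean-variance trend (two-sided, Benjamini-Hochberg over 12239 genes). The fit was also run on simulated reads with few changed genes and no GC trend. Those reads differ from these data, so that run does not check the calls made here. The GC correction removed a natural spline (5 df) of transcript GC content (GENCODE M21, 99.5% of genes matched) from each library. The genes and lists were chosen with earlier results of these data known. Named genes were the 10, up to 8 past the threshold per list by size of change, and 12 fixed names, some of which are not reported here. Multi-mapping and strand settings are not given in the sources used here. Reads are not unique molecules, so limits at 0 reads cover counting error only. Alternatives were other scalings, filters, weights, thinning to 2613277 reads, voom, a replicate block and leaving out libraries.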

Additional observations from a re-analysis of the deposited data

Results flagged for a closer look

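In groups of 4 libraries, the highest or lowest value was singled out when its gap to the nearest other library exceeded Dixon's 95% critical share of the group's range. Of 54 WT values tested, 8 were singled out, and chance alone gives about 1 in 20, or 2.7.

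WT replicate 4 held 7 of the 8. Its table had 4683853 reads, against 14929214 to 15464499 in the other WT libraries. *Musk* was 0.95 there, against 2.34 to 2.45, and *Rapsn* was 3.46, against 4.89 to 5.12. Both lay toward the C2-/- values, yet the *Rapsn* call was made with and without this library. *Chrna1* minus *Chrne* was 0.93, against −0.17 to −0.16 in the others. The neurotrophin receptor gene *Ngfr* was 4.50 (others 1.47 to 1.93), the integrin gene *Itga7* was 5.79 (others 6.98 to 7.13) and the matrix gene *Lum* was 5.18 (others 4.59 to 4.68). *Mbp*, a myelin gene, was 4.50 in WT replicate 3 and 3.75 to 3.78 in the others.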

How the results depend on the processing

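Over 236 alternative values of the 10 junction genes, 206 kept their direction and their side of the threshold, 9 lost the call, 5 gained it and 16 reversed. *Chrnb1* (1.17 to 1.78) passed in all 24 alternatives and *Dok7* (−4.94 to −1.65) in all 23 that kept it, and *Mybpc2* ranged from −12.30 to −10.78. Of the 10, between 4 and 7 passed, and 5 to 6 with 1 library left out. Chosen after seeing the data were the GC correction of thinned reads, the GC correction without WT replicate 4 or without C2-/- replicate 2, and leaving out both.

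With the GC correction alone, on thinned reads, without WT replicate 4 and without C2-/- replicate 2, in that order, the counts past the threshold were 2509, 2249, 3130 and 2259 of all genes (5528 uncorrected), 8, 8, 12 and 7 of the other junction genes (24 uncorrected), and 4, 4, 5 and 3 of the denervation genes (9 uncorrected). In the same order *Ache* was 0.76, 0.92, 0.89 and 0.71, *Chrnd* 0.24, 0.28, 0.12 and 0.45, and *Chrna1* minus *Chrne* −0.23, −0.17, −0.041 and −0.62. *Musk* was 0.10 in the last of these. At an adjusted p under 0.01 the 3 counts were 3216, 12 and 4. With 1 library left out they ranged from 4095 to 6136, 17 to 23 and 7 to 11. *Chrna1* and *Ache* lost their calls under library quality weights, at −0.84 (adjusted p by limma = 0.0676) and −0.86 (adjusted p by limma = 0.0602). *Ncam1* reversed with voom (−0.10), thinning (−0.10), both libraries left out (−0.12) and 1 library left out (−0.24 to 0.42). Same-numbered libraries did not pair: their deviations from the group means correlated by −0.06 to 0.05, and 1 of 6 libraries was closest to its own number. With the replicate block 5901 genes passed, *Ncam1* was −0.0010, and no call of the 10 changed. Centring each library on its median gave 3040 genes higher and 2594 lower (2473 and 3055 as deposited), and it changed no call of the 10. Requiring a mean log2 value of at least 3 removed *Chrnd*, *Musk*, *Rapsn* and *Dok7*. The cause of these changes was not tested.

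Depth limits *Dok7*, *Rapsn*, *Musk* and *Chrnd* most, since 3 reads amount to 0.621 to 1.12 CPM in the C2-/- libraries.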
